A study of Mus musculus with 16 samples.

Results

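NF-kB is a family of transcription factors, and the transcripts of 10 genes of its core machinery were followed here in microglia, the resident macrophages of the brain, from the hippocampus of 20-month-old and 3-month-old mice. The genes were chosen by symbol as members of the NF-kB pathway: the 5 subunits Nfkb1, Nfkb2, Rela, Relb and Rel, the 3 parts of the IkB kinase (Ikbkb, Chuk and Ikbkg), and the inhibitors Tnfaip3 and Tnip1. All 10 were found among the 24015 rows of the deposited table, and all 10 passed the filter on low values, as did 11579 genes in all. There were 6 samples at 20 months and 6 at 3 months, with the strain given as C57BL/6 except for aged sample 5 (C57BL/7) and the pair of libraries of aged sample 6 (C57BL/8 and C57BL/9). These last digits run on by 1 from library to library and differ between libraries of the same sample, so the labels may be an entry slip for C57BL/6 and are not read here as a difference in strain. The mice carried no stated mutation and had no stated treatment. Microglia were sorted as live CD11b-positive, CD45-low cells, and full-length cDNA was sequenced as read pairs. No label states how many mice stand behind a sample; the p-values therefore describe the spread among the samples given, which may in part be technical.

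At rest, NF-kB dimers are held in the cytoplasm by IkB proteins. Receptors for microbial products, tumour necrosis factor and interleukin 1 activate the IkB kinase, which marks IkB for destruction and frees dimers such as p50 with RelA. A second, slower route acts through IKK-alpha on p100, the precursor of p52, which pairs with RelB. Inhibitors made under NF-kB control, among them IkB-alpha and A20, then switch the signal off. The first steps run on proteins already present, so transcript levels do not measure the activity of the pathway.

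Depth was 11.4 to 47.3 M reads in the 8 samples made from 1 library. Aged samples of this kind averaged 27.0 ± 3.15 M and young ones 30.9 ± 16.5 M (SD; n = 4 per age, two-sided exact permutation p = 0.657). The other 4 samples joined 2 technical replicate libraries, and their reads were not recovered. Aged sample 5 stood apart: it was the highest or lowest of its age in 49.3% of tested genes, against 20.4% to 39.8% for the other aged samples and 25.0% to 43.4% for the young samples, where an even share is 33.3%. The summed level of 10 microglia markers ran from 63318 to 69729 CPM (counts scaled to the total of the sample) in aged samples and from 70691 to 76455 CPM in young samples. T, NK and B cell markers summed to at most 0.495 CPM in aged samples and 1.05 CPM in young samples. In cell populations such as these, fewer cells of a type and less RNA per cell cannot be told apart.

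The starts of several of these genes carry the sequence that NF-kB binds, and the matches are shown because genes of the pathway that NF-kB itself switches on are known to carry it. Windows of 300 bases, from 250 before to 50 after an annotated gene start, were taken from RefSeq (GRCm38.p6) for 7 of the 10 members, which had 13 windows between them, and for Nfkbia. The kB consensus, a motif added after the data had been seen, was found on either strand in windows of 4 of the 7 members: Nfkb2, Rel, Tnfaip3 and Tnip1. Of all 27025 genes with a window, 5.14% held it. The stricter pattern, GGGA, any base, then TTTCC, a subset of the consensus, was in Nfkb2 alone of the members and in 0.466% of all genes. The loose pattern GGGNNNNNCC, which contains the consensus, was in all 7 and in 53.5% of all genes. Genes with several windows have more chances of a match. Each stretch below reads 5′ to 3′ on the strand of its gene, with the bases matching the consensus in capitals and 10 bases on either side.
Nfkb2, chr19:46304688-46304718, plus strand: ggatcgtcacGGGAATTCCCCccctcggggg
Nfkb2, chr19:46304716-46304745, plus strand: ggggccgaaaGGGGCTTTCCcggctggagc
Nfkb2, chr19:46305695-46305724, plus strand: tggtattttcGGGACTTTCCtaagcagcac
Rel, chr11:23771041-23771071, minus strand: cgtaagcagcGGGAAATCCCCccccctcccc
Tnfaip3, chr10:19015403-19015432, minus strand: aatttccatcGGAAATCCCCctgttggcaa
Tnip1, chr11:54962977-54963008, minus strand: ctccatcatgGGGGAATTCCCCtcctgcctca
Nfkbia, chr12:55492657-55492686, minus strand: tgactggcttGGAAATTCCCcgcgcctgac

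Counted from an annotated gene start, the capitals begin at -39 in the first Nfkb2 stretch, at -12 in Tnfaip3 and at -29 in Nfkbia. Further consensus matches, not shown, were in the windows of Nfkb2 and Tnfaip3. In Rela, Chuk and Ikbkg these windows held no consensus match, which says only that these letters are not in these bases.

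In GENCODE M21 on GRCm38, the subunit genes are Nfkb1 (chr3:135584655-135691547, minus strand), Nfkb2 (chr19:46304320-46312385, plus strand), Rela (chr19:5637483-5648130, plus strand), Relb (chr7:19606217-19629438, minus strand) and Rel (chr11:23736847-23770970, minus strand). The kinase genes are Ikbkb (chr8:22659212-22706589, minus strand), Chuk (chr19:44073335-44107480, minus strand) and Ikbkg (chrX:74393290-74453854, plus strand). The inhibitor genes are Tnfaip3 (chr10:19000910-19015657, minus strand) and Tnip1 (chr11:54910785-54962917, minus strand). Counts were taken per gene, so exons and transcript forms were not told apart.

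Levels were compared between genes as normalized counts per kb of annotated exon. Rela, which encodes the transactivating subunit p65, had the highest level of the 10, at 2873 ± 130 normalized counts per kb at 20 months and 2946 ± 97.6 at 3 months (SD, n = 6 each). Nfkb1, which encodes p105 and its product p50, followed at 1378 ± 110 per kb at 20 months and 1489 ± 87.8 at 3 months. The 2 genes of the most common NF-kB dimer therefore stood first and second in every sample, above 96.2% and 90.8% of tested genes with a known length. Rel, which encodes c-Rel, was the lowest, at 106 ± 27.0 per kb at 20 months and 100 ± 22.6 at 3 months.

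Between them the mean levels fell in the order Tnfaip3, Relb, Ikbkb, Chuk, Nfkb2, Ikbkg and Tnip1, from 660 to 211 normalized counts per kb over the 12 samples. Neighbours in this order overlapped in their ranges over the samples except at 4 steps: Rela over Nfkb1, Nfkb1 over Tnfaip3, Ikbkb over Chuk, and Tnip1 over Rel. Nfkb2 and Ikbkg could not be ordered, since Nfkb2 was the higher in 7 of 12 samples. Exon length was the union over basic GENCODE M21 transcripts, so a gene with a long exon that microglia do not use appears lower than it is. This length was 7466 bp for Rel and 7331 bp for Ikbkg, against 2211 to 4595 bp for the others.

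**Figure D1:**
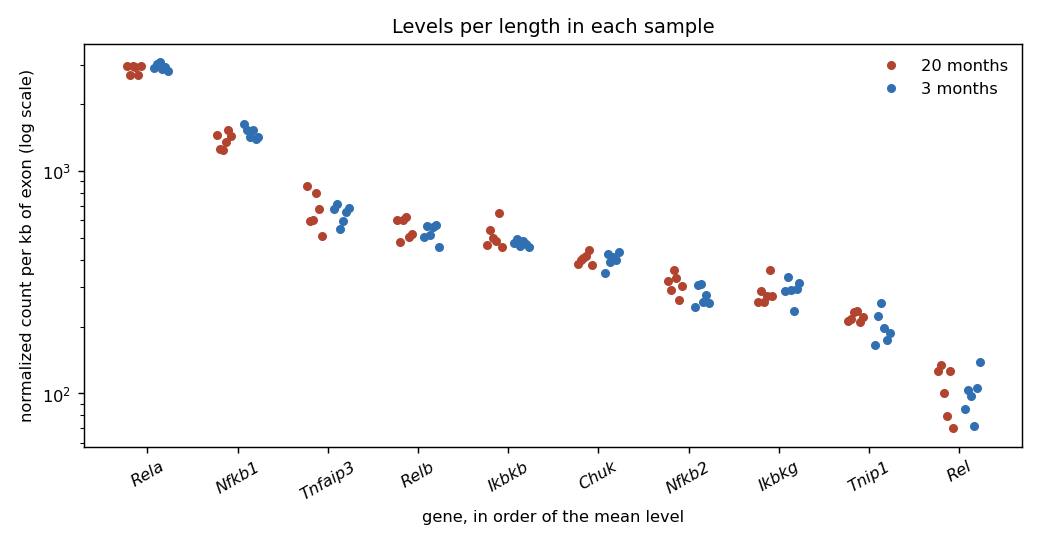
Normalized counts per kb of annotated exon (log axis) for the 10 genes in order of their mean level, with 1 point per sample at 20 months (red) and 3 months (blue). Rela lies between 2701 and 3087 in every sample and Rel between 69.7 and 138, and the ages lie side by side for each gene.

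The comparison of the ages asks whether aged hippocampal microglia hold more or less transcript of this machinery. None of the 10 genes passed the test (limma, adjusted p over all 11579 tested genes, 0.523 to 0.986), against 1.73% of all tested genes, made up of 1.27% higher and 0.458% lower at 20 months. None reached an unadjusted p under 0.05, against 10.8% of all tested genes. On the reads of the 8 samples with 1 library, edgeR and DESeq2 likewise called none, with none at an unadjusted p under 0.05. Some members did reach an unadjusted p under 0.05 when samples were left out: Nfkb1 and Nfkb2 without aged sample 5 or without aged samples 5 and 6, Nfkb2 and Tnip1 without young sample 3, and Nfkb2 without young sample 2. None of these passed the adjustment (limma adjusted p, 0.270 to 0.446). The samples of the ages overlapped in every member, while they did not overlap in 1.87% of tested genes. Log2 fold changes ran from -0.11 to 0.18, with 7 above 0 and 3 below. Their median was 0.06, against 0.00 over all tested genes.

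The data also bound the size of a difference, as far as the spread among these samples stands for the spread among mice. The 95% intervals of the fold change lay within 1.5-fold in either direction for all 10 genes, and within 1.2-fold for 5 of them. The widest was that of Rel, from 0.811-fold to 1.35-fold. These intervals are not adjusted for the number of genes.

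**Figure D2:**
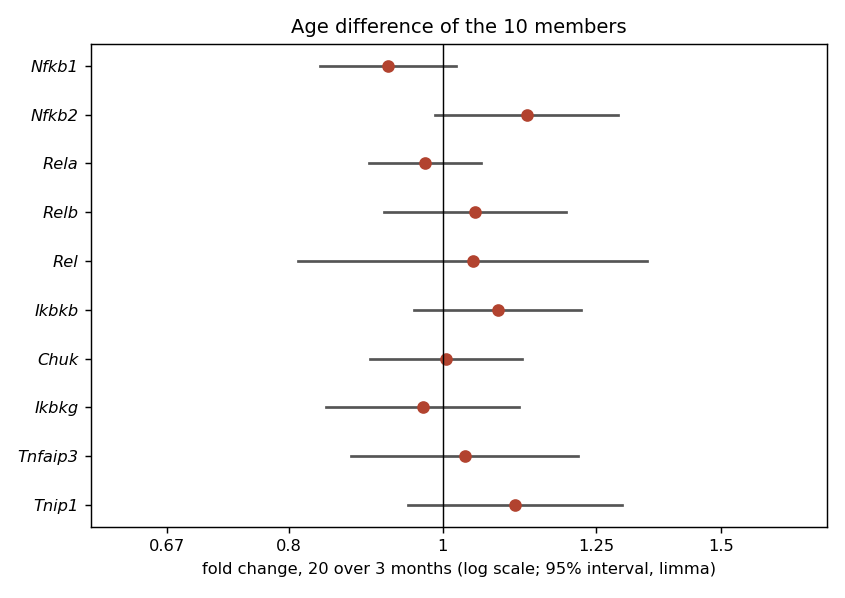
Fold change of the 10 genes at 20 months over 3 months on a log axis; points are limma estimates and lines are 95% intervals, n = 6 per age. Every line crosses 1, from 0.924-fold for Nfkb1 to 1.13-fold for Nfkb2.

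Of the subunits of the canonical route, Rela was the steadiest. Its counts ran from 7335 through a median of 7988 to 8109 normalized counts at 20 months, and from 7694 through 7936 to 8384 at 3 months. Within an age its samples varied by an SD of 0.06 on the log2 scale, and only 12 of the 11579 tested genes had a smaller one. Among 1013 tested genes with a mean within 2-fold of its own, 3 had a smaller SD, or 0.296%. In 2 of 6 aged samples it was below all young samples. Rela was 0.975-fold at 20 months (95% interval 0.899 to 1.06; limma adjusted p = 0.901).

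Nfkb1 had the smallest ratio of aged to young of the 10 genes. It ran from 5143 through a median of 5747 to 6282 normalized counts at 20 months, and from 5758 through 6095 to 6701 at 3 months. In 3 of 6 aged samples it was below all young samples, and in the other 3 it lay among them. The fold was 0.924 (95% interval 0.837 to 1.02; limma adjusted p = 0.630).

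Rel, the subunit best known from lymphocytes, varied most of the 10 between samples of 1 age, with an SD of 0.36 on the log2 scale. It ran from 521 through a median of 844 to 999.5 normalized counts at 20 months, and from 531 through 753 to 1031 at 3 months. Both ages therefore spanned nearly the same range, with a fold of 1.05 (95% interval 0.811 to 1.35; limma adjusted p = 0.945). Its direction turned without aged sample 2, where the log2 fold change was -0.01, and without young sample 4, where it was -0.03. Of tested genes at a similar mean, 93.0% had a smaller SD than Rel.

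Nfkb2 encodes p100, which is both an inhibitor and the precursor of p52, and it had the smallest p-value of the members. Its counts ran from 1114 through a median of 1314 to 1509 normalized counts at 20 months, and from 1031 through 1128 to 1306 at 3 months. In 3 of 6 aged samples it was above all young samples, while aged sample 5, the lowest aged sample, was below the young median. The fold was 1.13 (95% interval 0.990 to 1.29; limma adjusted p = 0.523, exact permutation p = 0.0671 before adjustment). Without aged sample 5 the log2 fold change was 0.22 in place of 0.18, and it did not pass (limma adjusted p = 0.284). Of the 4221 bp of Nfkb2 exon, 830 bp overlap exons of 2 genes on the opposite strand, Psd and the noncoding AC114539.1, and the libraries do not mark strand. Psd itself, with 79.5 ± 13.9 normalized counts at 20 months and 45.1 ± 23.0 at 3 months (SD, n = 6 each), did not pass either (limma adjusted p = 0.268). It was above all young samples in 5 of 6 aged samples, at a level far below that of Nfkb2, and its part in the Nfkb2 counts was not tested.

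Relb, the partner of p52, ran from 1060 through a median of 1242 to 1380 normalized counts at 20 months, and from 1006 through 1191 to 1265 at 3 months. Again 3 of 6 aged samples, numbers 1, 3 and 4, were above all young samples. The other 3 lay among the young samples, and the fold was 1.05 (95% interval 0.919 to 1.197; limma adjusted p = 0.883). Aged samples 1, 3 and 4 were also the 3 highest aged samples for Nfkb2.

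The balance of the routes was set out as ratios of levels per kb, without a test because the ratios were formed after the values were known. Nfkb2 over Nfkb1 was 0.228 ± 0.0376 at 20 months and 0.186 ± 0.0244 at 3 months (SD, n = 6 each), with 4 of 6 aged samples above all young samples and aged sample 5 among the young ones at 0.173. Relb over Rela was 0.193 ± 0.0156 at 20 months and 0.180 ± 0.0145 at 3 months, with 3 aged samples above all young ones. The ages overlapped in both ratios.

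**Figure D3:**
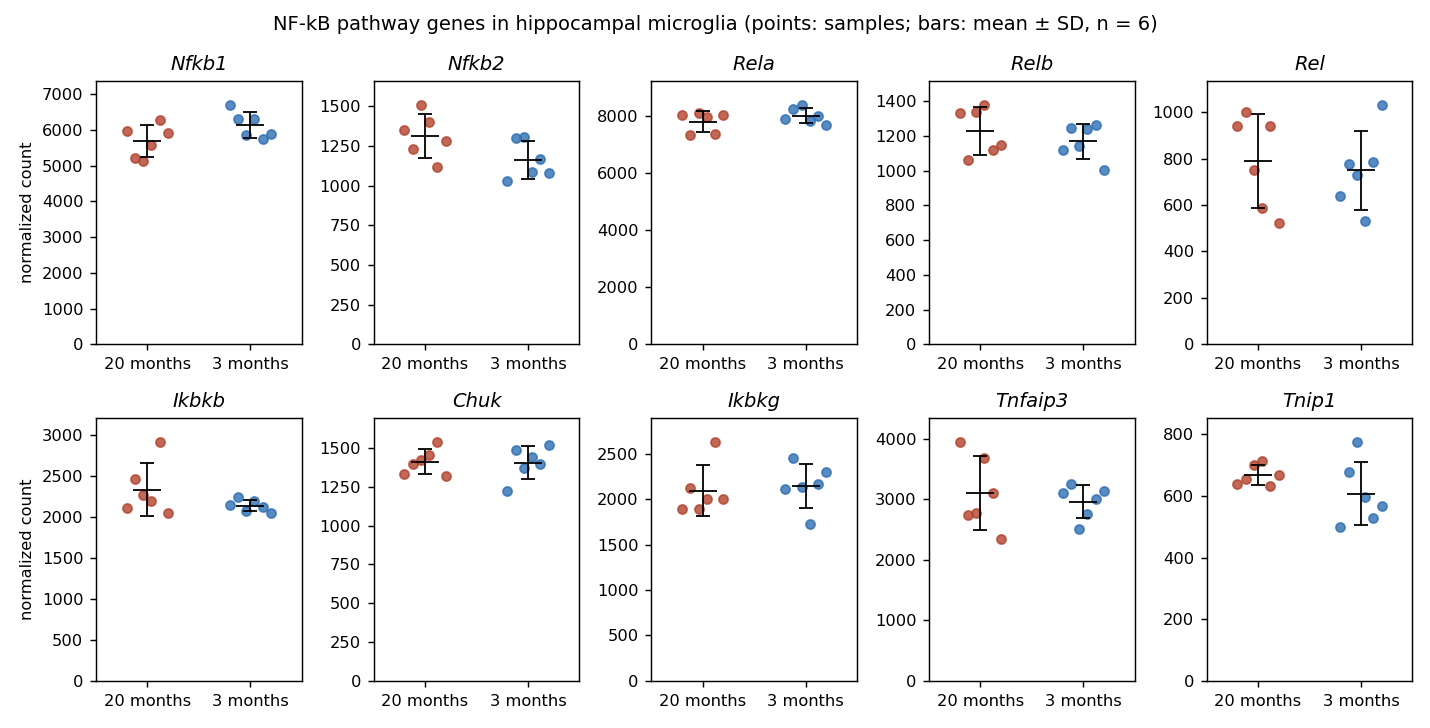
Normalized counts of the 10 genes by age, with 1 panel per gene and an axis from 0; points are samples, and bars are mean and SD of 6 samples. The ages overlap in each panel, and the single high aged point of Ikbkb (2924) and of Ikbkg (2633) is aged sample 5.

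The IkB kinase consists of the kinases IKK-beta (Ikbkb) and IKK-alpha (Chuk) and the regulatory subunit NEMO (Ikbkg), which binds ubiquitin chains. Ikbkb ran from 2057 through a median of 2235 to 2924 normalized counts at 20 months, and from 2058 through 2136 to 2250 at 3 months. The coefficient of variation was 13.7% at 20 months and 3.39% at 3 months, where the samples lay close together; this difference in spread was not tested. The highest value was that of aged sample 5, followed by 2468 in aged sample 2, and 3 of 6 aged samples were above all young ones. The fold was 1.08 (95% interval 0.960 to 1.22; limma adjusted p = 0.734), and without aged sample 5 the log2 fold change was 0.05 in place of 0.12.

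Chuk, the kinase of the alternative route, had the fold nearest to 1 of all members. It ran from 1319 through a median of 1411 to 1541 normalized counts at 20 months, and from 1220 through 1421 to 1518 at 3 months. The fold was 1.01 (95% interval 0.900 to 1.12; limma adjusted p = 0.986), and its direction turned in 5 alternatives. Within an age its SD was 0.10 on the log2 scale, and 6.96% of tested genes at a similar mean had a smaller one.

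Ikbkg ran from 1887 through a median of 2004 to 2633 normalized counts at 20 months, and from 1730 through 2150 to 2449 at 3 months. Here too aged sample 5 was the highest of the 12, and the next aged sample stood at 2127. The fold was 0.972 (95% interval 0.845 to 1.12; limma adjusted p = 0.938), and without aged sample 5 the log2 fold change was -0.11 in place of -0.04. All 3 genes of the kinase complex thus had their highest value of the 12 samples in aged sample 5. That sample stood apart across tested genes, and the part of this in these values was not tested.

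The ratio of Ikbkb to Chuk per kb was 1.28 ± 0.114 at 20 months and 1.18 ± 0.0996 at 3 months (SD, n = 6 each), with overlapping samples. That of Ikbkg to Ikbkb was 0.554 ± 0.0299 at 20 months and 0.620 ± 0.0725 at 3 months, also overlapping.

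Tnfaip3 encodes A20, a ubiquitin-editing enzyme that ends NF-kB signals and is itself an NF-kB target. It ran from 2344 through a median of 2940 to 3954 normalized counts at 20 months, and from 2517 through 3060 to 3256 at 3 months. Aged samples 1 and 4, at 3954 and 3680, were above all young samples, and aged sample 6 was below all of them. The coefficient of variation was 19.8% at 20 months and 9.33% at 3 months, and the difference in spread was not tested. The fold was 1.03 (95% interval 0.876 to 1.22; limma adjusted p = 0.938), and the direction turned without aged sample 1 (log2 fold change -0.03) or aged sample 4 (-0.01).

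Tnip1 encodes ABIN1, which binds A20 and ubiquitin chains. It ran from 633 through a median of 663 to 714 normalized counts at 20 months, and from 501 through 583 to 777 at 3 months. All 6 aged samples lay inside the young range, and the coefficient of variation was 4.95% at 20 months and 16.9% at 3 months, a difference in spread that was not tested. The fold was 1.11 (95% interval 0.951 to 1.30; limma adjusted p = 0.723).

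**Figure D4:**
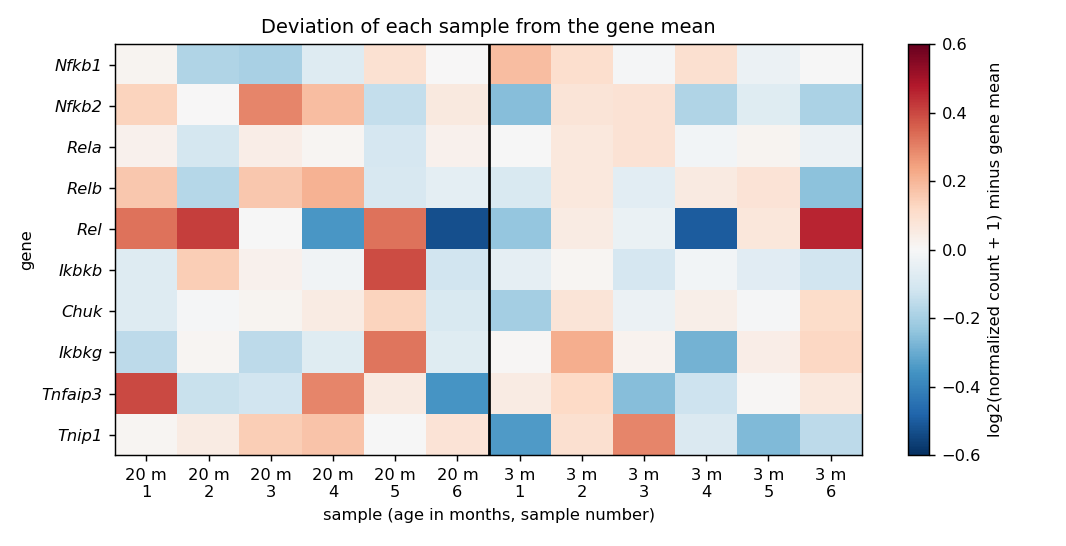
Log2 of the normalized count plus 1 in each sample less the mean of its gene over 12 samples, for the 10 genes (rows), with aged samples left and young samples right of the line. Rel varies most in both ages, Rela hardly at all, and aged sample 5 is the highest for Ikbkb, Chuk and Ikbkg.

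After removal of the age means, the 45 pairs of members had a median Pearson r of 0.02 over 12 samples, with 23 above 0. The highest was that of Nfkb2 and Rela (r = 0.85) and the lowest that of Rela and Ikbkb (r = -0.63). As a description, since the most alike of 11579 genes were picked, Nfkb1 was most like Ctns (Pearson r = 0.92, Spearman rho = 0.94, n = 12), Bcs1l (r = 0.81, rho = 0.76) and Nadsyn1 (r = 0.81, rho = 0.71). Nfkb2 was most like Sap130 (r = 0.94, rho = 0.94), E2f4 (r = 0.90, rho = 0.89) and Igfbp4 (r = 0.86, rho = 0.85). Rela was most like Noa1 (r = 0.91, rho = 0.86), Creld1 (r = 0.89, rho = 0.78) and Mogs (r = 0.89, rho = 0.92). Tnfaip3 was most like Lclat1 (r = 0.91, rho = 0.91), Cand2 (r = 0.89, rho = 0.81) and Armcx2 (r = 0.89, rho = 0.87). Without the 2 samples farthest from the median of the member, these 12 values of r ran from 0.69 to 0.91. All genes share the same libraries and scaling, and these correlations have no p-value.

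The other genes of the pathway were taken as 5 lists by role, 105 genes of which 95 were tested. Of these 4 rose and none fell (limma), or 4.21%, and their median log2 fold change was 0.01. Over all tested genes 1.73% were called, 1.27% higher and 0.458% lower, and the counts of each list are to be read against these shares. Because the lists were chosen with earlier results of these data known, a larger share in a list does not show an excess. The IkB family, the direct inhibitors and nuclear modifiers of the dimers, had no call among 6 tested genes, none at an unadjusted p under 0.05, and a median log2 fold change of 0.10. Nfkbia, the IkB-alpha gene, ran from 2250 through a median of 3789 to 3998 normalized counts at 20 months, and from 2800 through 3505 to 3702 at 3 months. In 4 of 6 aged samples it was above all young samples, while aged sample 5 was the lowest of the 12. Its fold was 1.02 (limma adjusted p = 0.960), and without aged sample 5 the log2 fold change was 0.16 in place of 0.03 (limma adjusted p = 0.448).

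Nfkbiz encodes IkB-zeta, a nuclear cofactor of inducible genes. It stood at 357 ± 116 normalized counts at 20 months and 270 ± 52.4 at 3 months and did not pass (limma adjusted p = 0.494). Nfkbib, the IkB-beta gene, stood at 1087 ± 72.2 at 20 months and 968 ± 109 at 3 months (limma adjusted p = 0.521). The ages overlapped in both.

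Of 18 tested receptors upstream of NF-kB, 1 rose, none fell, and the median log2 fold change was -0.05. The riser was Cd40, a tumour necrosis factor receptor family member that feeds both routes. It ran from 45.3 to 109 normalized counts at 20 months and from 15.03 to 38.5 at 3 months, with no overlap, and rose 2.69-fold (limma adjusted p = 0.0182). The call was lost in 9 alternatives, among them without aged sample 3 (limma adjusted p = 0.0564) and on the 8 samples with 1 library with limma (0.202), edgeR (0.211) and DESeq2 (0.0551). Cd14, a co-receptor for lipopolysaccharide, stood at 14830 ± 1576 normalized counts at 20 months and 17349 ± 1242 at 3 months (limma adjusted p = 0.180). It was below all young samples in 5 of 6 aged samples and did not pass in any alternative. Tlr5, the receptor for flagellin, stood at 679 ± 59.4 and 837 ± 135 normalized counts at 20 and 3 months (limma adjusted p = 0.297).

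Of 29 tested adaptors and upstream kinases, 1 rose, none fell, and the median log2 fold change was -0.02. Irak3, a pseudokinase that restrains Toll-like receptor signals, rose 1.53-fold, with 192 through 244 to 268 normalized counts at 20 months and 108 through 157 to 192 at 3 months as lowest, median and highest. Aged sample 1 overlapped the young range by less than 1 normalized count, and the other 5 aged samples were above it. Its limma adjusted p was 0.0459, and the call was lost in 19 of 27 alternatives, with adjusted p up to 0.403. Dropping a single sample ended the call in 10 of 12 cases; it held when aged sample 1 or young sample 3 was dropped. Tab2, an adaptor of the kinase TAK1, stood at 834 ± 168 normalized counts at 20 months and 1034 ± 138 at 3 months (limma adjusted p = 0.297). Tirap, which brings MyD88 to the membrane, stood at 1167 ± 89.4 and 1337 ± 119 normalized counts at 20 and 3 months (limma adjusted p = 0.363).

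The 12 tested ubiquitin ligases and deubiquitinases of the pathway had no call, none at an unadjusted p under 0.05, and log2 fold changes from -0.17 to 0.15. Spata2, which links the deubiquitinase CYLD to the linear ubiquitin ligase, had the smallest p, with 1807 ± 133 normalized counts at 20 months and 2044 ± 301 at 3 months (limma adjusted p = 0.591). Rnf31, the catalytic subunit of that ligase, stood at 1800 ± 197 at 20 months and 1633 ± 278 at 3 months (limma adjusted p = 0.735).

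Of 30 tested genes known as NF-kB targets in macrophages, 2 rose, none fell, and the median log2 fold change was 0.08, with 20 above 0 and 10 below. An unadjusted p under 0.05 was reached by 6 of the 30, all higher at 20 months, and the ages did not overlap in 3, against 10.8% and 1.87% of all tested genes. As this list was chosen with earlier results of these data known, these shares are a description only. Vcam1, an adhesion molecule, rose 2.54-fold. It ran from 305 through a median of 572 to 798 normalized counts at 20 months and from 150 through 221 to 275 at 3 months, with no overlap (limma adjusted p = 5.81e-04). It kept its call in 26 of 27 alternatives; the exception, the exact permutation test over all genes, cannot give an adjusted p below 0.115 here. Cybb, a subunit of the phagocyte oxidase, rose 2.31-fold. It lay between 245 and 481 normalized counts at 20 months and between 92.9 and 207 at 3 months, with no overlap. Its limma adjusted p was 0.0056, a call lost under the exact permutation test and on the 8 samples with 1 library with limma (0.0965) and edgeR (0.0921).

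The other 28 tested targets were not called, and those named here were chosen after their values were seen. Il6, an inflammatory cytokine, had 156 ± 31.8 normalized counts at 20 months and 94.7 ± 21.3 at 3 months, a fold of 1.65 with no overlap, and just missed the threshold (limma adjusted p = 0.0586). Cxcl10, a chemokine, had 138 ± 120 at 20 months and 44.6 ± 19.4 at 3 months, a fold of 2.65 with 4 of 6 aged samples above all young ones (limma adjusted p = 0.0992). Aged sample 4 held its highest value, at 376 normalized counts, against 54.3 to 118 in the other aged samples. That sample was also the highest for Fos, and a link was not tested. Tnfaip2 and Bcl2a1a, at 1.24-fold each, were the other uncalled targets at an unadjusted p under 0.05 (limma adjusted p = 0.390 and 0.348). Of the other Bcl2a1 genes in the list, Bcl2a1b was at 0.947-fold and Bcl2a1d at 1.02-fold (limma adjusted p = 0.870 and 0.978). Icam1, an adhesion molecule, lay near 1, with 10163 ± 1026 normalized counts at 20 months and 10415 ± 434 at 3 months. So did Sod2, a mitochondrial superoxide dismutase, with 736 ± 66.2 at 20 months and 746 ± 24.1 at 3 months. Of the 6 further targets, below the filter, Il10 and Cxcl1 were listed at 0 in all 12 samples. In samples with 1 library a count of 0 allows up to 3 reads, or 1.697 to 7.37 normalized counts by sample, for counting error only; the reads carried no molecular identifiers.

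Some markers of other cells also differed between the ages. The 6 monocyte markers summed to 4.10 to 5.86 CPM at 20 months and 2.11 to 4.48 CPM at 3 months (exact permutation p = 0.00433, adjusted over 11 lists 0.0238), with none at 0 in every sample and 0 of 3 tested past the threshold. Their most abundant gene, Ccr2, stood at 99.4 ± 26.9 normalized counts at 20 months and 65.6 ± 19.6 at 3 months. The sum of the 10 microglia markers was lower in every aged sample than in every young one (exact permutation p = 0.00216, the smallest the design allows, adjusted 0.0238), and their most abundant gene, Csf1r, stood at 583844 ± 42787 normalized counts at 20 months and 633709 ± 50203 at 3 months. Of the 10, 1 fell: Fcrls, with 89490 ± 6869 normalized counts at 20 months and 123873 ± 5703 at 3 months, a fold of 0.721 with no overlap (limma adjusted p = 3.82e-04). Of the other 9, Sall1 and Siglech had log2 fold changes of 0.05 each and Tmem119 one of -0.04. Choroid plexus markers summed to 67.7 ± 44.5 CPM at 20 months and 26.4 ± 17.1 CPM at 3 months and did not pass (adjusted exact permutation p = 0.206). Their highest sum, 131.5 CPM, was that of aged sample 5. All 5 tested choroid plexus markers had log2 fold changes above 0, from 1.11 to 1.56. Of these 3 reached an unadjusted limma p under 0.05 and none was called. The summed levels of the other 7 lists of cell markers had adjusted p from 0.446 to 0.879. Such a sum is weighted toward the more abundant genes of its list. Among astrocyte markers, whose sum is mostly Slc1a3, Aldh1l1 rose 2.82-fold with no overlap, with 57.2 ± 26.5 normalized counts at 20 months and 19.4 ± 8.37 at 3 months (limma adjusted p = 0.0411). Among border macrophage markers 5 of 6 tested were above 0 and none was called, with a median log2 fold change of 0.82. They include F13a1 at 3.62-fold (limma adjusted p = 0.172), Cd163 at 3.49-fold (0.438) and Ms4a7 at 2.22-fold (0.363), while Mrc1, the most abundant, was at 0.830-fold (0.856). The part of these markers in the rises of Cd40, Irak3, Vcam1 and Cybb was not tested.

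Genes that dissociation of tissue can switch on were read beside the targets, since NF-kB targets can rise in the same way. Of 24 tested immediate early and stress genes none rose and 1 fell: Btg2, an inhibitor of proliferation, stood at 7357 ± 289 normalized counts at 20 months and 9186 ± 768 at 3 months, a fold of 0.803 with no overlap (limma adjusted p = 0.0150). This call was lost in 5 of 27 alternatives: the replicate block, the exact permutation test, and limma and both forms of edgeR on the 8 samples with 1 library. The 25 genes of the list summed to 1573 ± 144 CPM at 20 months and 1601 ± 171 CPM at 3 months (SD; n = 6 per age, p = 0.747 by an exact permutation test, adjusted 0.821). Btg2, the most abundant of them, made up 275 ± 11.4 CPM at 20 months and 340 ± 29.1 CPM at 3 months. The other 24 genes together ran the other way, with 1298 ± 136 CPM at 20 months and 1262 ± 171 CPM at 3 months and overlapping samples, and 15 of the 24 tested genes of the list had a log2 fold change above 0. Fos was the highest in aged sample 4, at 469 normalized counts against 18.1 to 102 in the other aged samples and 9.83 to 37.0 in young samples, and did not pass (limma adjusted p = 0.325). Hsp90aa1, a chaperone, stood at 1496 ± 265 at 20 months and 1256 ± 134 at 3 months (limma adjusted p = 0.446). Hspa1a and Hspa1b, of the same list, were highest in aged sample 1. Hspa1a stood there at 878 normalized counts, against 14.4 to 139 in the other aged samples and 7.29 to 211 in young samples. Hspa1b stood at 1538, against 22.6 to 242 and 18.8 to 330. Young sample 3 held the highest young value of both, and neither gene passed (limma adjusted p = 0.496 and 0.734). Aged sample 1 was also the highest for Tnfaip3, and a link was not tested.

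**Figure D5:**
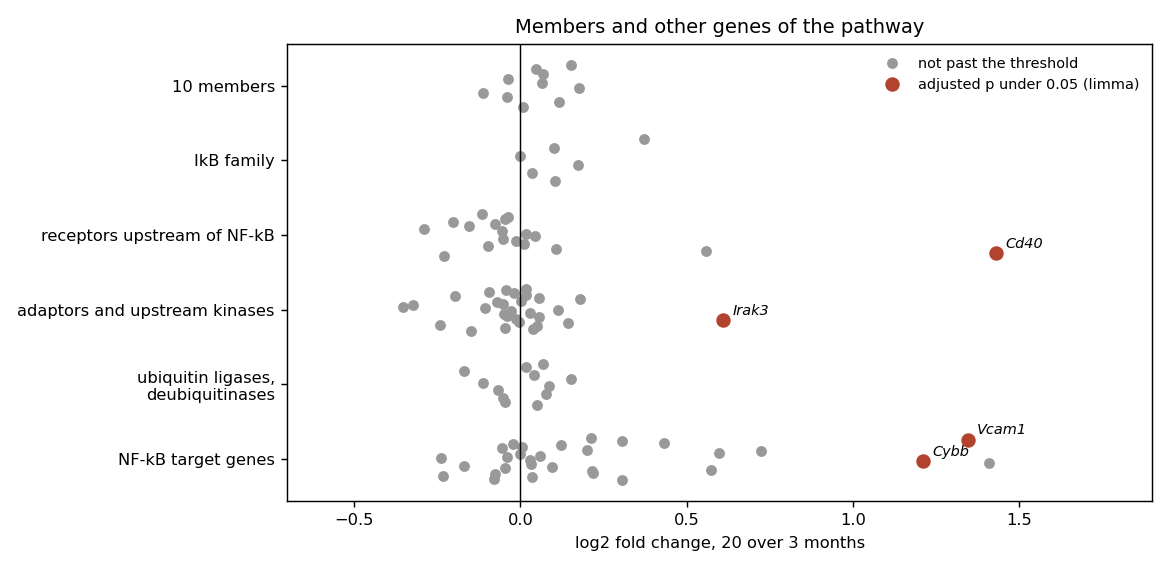
Log2 fold change at 20 months over 3 months for the 10 members and for the tested genes of 5 other lists of the pathway (rows), with 1 point per gene; red points passed limma's adjusted p of 0.05 and are named. The members lie between -0.11 and 0.18, and the 4 red points are Cd40, Irak3, Vcam1 and Cybb.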

How the data were processed

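RNA of sorted hippocampal microglia was converted to cDNA, tagmented and sequenced as read pairs, per the labels' protocols. The submitters' processing notes name STAR, SAMtools, DESeq2 and the build mm10; the gene counter is not given in the sources used here. The signal values that the authors deposited are normalized counts per gene. The 8 columns of samples with 1 library were whole multiples of 1 step per column (tolerance 0.1 reads, 100% of values), which gave reads; the check on that step could not be run for aged sample 2, where it lies near 1. The columns of samples with 2 libraries look like means.

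Genes with at least 10 normalized counts in at least 6 samples were tested with limma 3.58.1 in R 4.3.3 on log2(value + 1), with a mean-variance trend and Benjamini-Hochberg adjustment at 0.05; fold changes on this scale understate those of low genes. Recovered reads were tested with edgeR 4.0.16 and DESeq2 1.42.0 as alternatives. The fit was tested on simulated data. Summed marker levels used exact permutation tests over 924 assignments. Annotation was GENCODE M21 (GRCm38). Samples of the same number were not treated as pairs. Their deviations from the age means correlated at -0.121 to 0.107, and 2 aged samples were most like the young sample of their own number. Such correlations cannot exclude a batch shared by samples of the same number.

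The members and lists were chosen with earlier results of these data known. Named were all members, Nfkbia, every called gene of a pathway list and, where at most 1 was called, the 2 genes of smallest p, the genes of highest likeness, and the most abundant gene of a marker list whose sum differed (Csf1r, Ccr2). Genes outside this rule were chosen after their values were seen: Psd, the targets named beside Vcam1 and Cybb, Hspa1a and Hspa1b, and the marker genes other than Csf1r and Ccr2. The other stress genes were named as a pathway list. Protein sequences were not used here.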

Additional observations from a re-analysis of the deposited data

Results flagged for a closer look

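In 76 groups of 6 samples checked for a sample far from the others, 6 were flagged, where chance flags about 1 in 20. Not every gene of the lists was checked, so these 6 are not all the outlying values. Hspa1a and Hspa1b, both highest in aged sample 1, were not among the 76 groups. Aged sample 5 was flagged for Ikbkg, with 2632.88 normalized counts against 2127 in the next aged sample, and for Nfkbia, with 2250.16 normalized counts against 3383 in the next. Aged sample 6 was flagged for Tirap, with 1335.56 normalized counts against 1176 in the next aged sample. Aged sample 4 was flagged for Fos, with 468.642 normalized counts against 102 in the next. Young sample 3 was flagged for Hsp90aa1, with 1523.34 normalized counts against 1250 in the next young sample. Young sample 1, the shallowest of the 8 samples with recovered reads, at 11.4 M, was flagged for the summed T, NK and B cell markers, with 1.05486 CPM against 0.449 CPM in the next young sample.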

How the results depend on the processing

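None of the 10 members was called in any of 27 alternatives, where the smallest adjusted p was 0.270, for Nfkb2 without aged samples 5 and 6. With the sample number as a replicate block, the counts over all genes were 115 higher and 30 lower, against 147 and 53, with no member called, and Cd40, Irak3 and Btg2 were no longer called. Over all genes, edgeR on the recovered reads gave 76 higher and 15 lower, edgeR with DESeq2 size factors 75 and 13, limma on the same 8 samples 67 and 11, and the exact permutation test 0 and 0, since it cannot give an adjusted p below 0.115. Leaving out 1 sample at a time gave 102 to 175 higher and 27 to 60 lower. Directions turned for Chuk (-0.0030 with quantile normalization, -0.000495 without aged samples 5 and 6, -0.0326 to 0.0303 leaving out 1 sample), and for Nfkbia (-0.0352 with DESeq2, -0.0362 with edgeR, -0.0355 with edgeR and DESeq2 size factors, -0.067 with limma on 8 samples, -0.0192 to 0.156 leaving out 1 sample), all as log2 fold changes. Leaving out 1 sample, Rel ran from -0.0296 to 0.175 and Tnfaip3 from -0.0286 to 0.122 as log2 fold changes, summed neuron markers from -0.207 to 0.289 CPM and summed dissociation genes from -69.7 to 6.69 CPM, aged minus young. The cause of these turns was not tested. The comparison of the members' protein sequences was not run.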
